A study of Mus musculus with 6 samples.

Results

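Hypoxia-inducible factor (HIF) is the transcription factor through which animal cells respond to low oxygen, and 10 genes of its oxygen-sensing machinery and feedback were followed here, of 36137 genes with values and 18506 tested. They were listed by name, and they were the α subunits *Hif1a* and *Epas1*, the shared partner *Arnt*, the oxygen sensors *Egln1*, *Egln2*, *Egln3* and *Hif1an*, the ubiquitin ligase subunit *Vhl*, and the HIF targets *Ndrg1* and *Pdk1*. All 10 passed the minimum of 10 counts over the libraries.

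RNA was measured in bone marrow-derived macrophages (BMDMs), which are macrophages grown from marrow precursors with L929-cell supernatant, and 3 WT and 3 Drp1 KO libraries were compared. Drp1 KO BMDMs came from *LysM*-Cre+/- *Drp1* fl/fl mice and WT BMDMs from *LysM*-Cre+/- *Drp1*+/+ mice, so the cells of both groups carried the Cre, which is driven by the lysozyme M promoter in myeloid cells. DRP1, encoded by *Dnm1l*, is the GTPase that divides mitochondria. On day 7 of culture both groups received hypoxia serum starvation (HSS), an in vitro model of ischemia, for 8 h in serum-free medium at 2.1% oxygen by the labels. No normoxic library was analysed here, so the values compare genotypes under HSS and do not measure the induction of any gene by low oxygen. The study's methods state that marrow of 2 mice per genotype was pooled, the labels call the libraries biological replicates, and neither says whether each library came from a pool of its own. If they did not, the p-values measure only a spread that may be technical. For the mice used throughout, the study's methods give an age of 8 to 12 weeks and both sexes.

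The libraries held 23389488 to 32231206 estimated counts, so that 3 counts, taken as the detection floor, were 0.0936 to 0.129 CPM, which are counts scaled to a common library size. *Dnm1l* itself stood at 72.6 ± 2.61 CPM (SD, n = 3) in WT libraries, against 61.9 ± 3.91 CPM (SD, n = 3) with the knockout. That is a log2 fold change of -0.23 with an adjusted p of 0.248 by edgeR, or 0.0739 with libraries paired by number, so the messenger count alone did not separate the genotypes at the threshold of 0.05. The groups did not overlap for *Dnm1l*, and sums over the gene do not set the floxed exons apart from the rest. All 12 macrophage markers were detected, of which *Fcgr1* rose and *Csf1r* and *Mertk* fell in Drp1 KO BMDMs by edgeR. Among the neutrophil markers *Ly6g* had no count in any library while 7 of 8 tested members had the higher mean in Drp1 KO BMDMs. The summed level of these 8 was 52.7 to 66.8 CPM in WT libraries and 65.5 to 95.01 CPM in Drp1 KO libraries. Of this, *Csf3r* made up 45.3 ± 1.66 and 43.9 ± 2.00 CPM (SD, n = 3 each). Without pairing, 0 of the 8 passed by edgeR at an adjusted p under 0.05, beside 3.36% of all genes, and 4 did at an unadjusted p under 0.05, beside 16.4%. With libraries paired by number, where 12.0% of all genes passed, these 4 were higher in Drp1 KO BMDMs, *S100a8* (log2 fold change 1.31, adjusted p 0.00146), *S100a9* (1.35, adjusted p 7.8e-05), *Ngp* (1.37, adjusted p 0.00264) and *Ltf* (1.09, adjusted p 0.0194). The part of the neutrophil markers in the results was not tested. Libraries 1 of both groups lay apart from libraries 2 and 3 on the second principal component (29.5% of variance), whereas the first (46.0%) separated the genotypes.

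In cells with enough oxygen, the prolyl hydroxylases made by *Egln1*, *Egln2* and *Egln3* (PHD2, PHD1 and PHD3) modify HIF α subunits, VHL then marks these for destruction, and the asparaginyl hydroxylase FIH, made by *Hif1an*, keeps any remaining subunit from its coactivators. When oxygen falls the α subunit is spared, pairs with ARNT and binds short DNA elements with the core ACGTG or GCGTG. *Egln1* and *Egln3* are themselves HIF targets, which closes a negative feedback loop. In macrophages HIF activity is known for driving glycolysis and for shaping the response to ischemia and infection. Because oxygen acts on the α subunit as a protein, the messengers of *Hif1a* and *Epas1* do not report how much of that protein was present.

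Under HSS none of the 10 genes differed between Drp1 KO and WT BMDMs at an adjusted p under 0.05 in edgeR's quasi-likelihood test over all 18506 genes. Of all genes tested, 3.36% passed, 2.29% upward and 1.06% downward. At an unadjusted p under 0.05, 1 of the 10 genes passed, *Epas1*, beside 16.4% of all genes. DESeq2 and limma-voom also called 0 of the 10 at an adjusted p under 0.05, against 6.24% and 3.37% of all genes. By the criteria used in the study, an absolute log2 fold change over 0.32 with an unadjusted p under 0.05, 1 of the 10 passed, again *Epas1*, beside 12.7% of all genes. Without WT library 1 the gene that passed these criteria was *Vhl* and not *Epas1*, and without Drp1 KO library 3 none of the 10 did. The log2 fold changes ran from -0.65 for *Epas1* to 0.23 for *Vhl*, 8 of 10 were below 0, and their median was -0.10, where the median of all genes was 0.0046.

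Same-numbered WT and Drp1 KO libraries deviated from their group means together, and a second fit therefore took the library number as a block. Their correlations were 0.510, 0.204 and 0.298 for numbers 1, 2 and 3. WT library 2 correlated better with Drp1 KO library 3 (0.326), so the matching of libraries 2 and 3 is uncertain. The labels state no pairing, and every paired result below rests on this choice. In that fit *Epas1* passed, at an adjusted p of 0.0282, while 12.0% of all genes passed, 6.73% upward and 5.22% downward. The other 9 genes did not. At an unadjusted p under 0.05, 5 of the 10 passed with pairing (*Epas1*, *Egln1*, *Egln3*, *Vhl* and *Hif1an*), beside 25.1% of all genes.

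**Figure D1:**
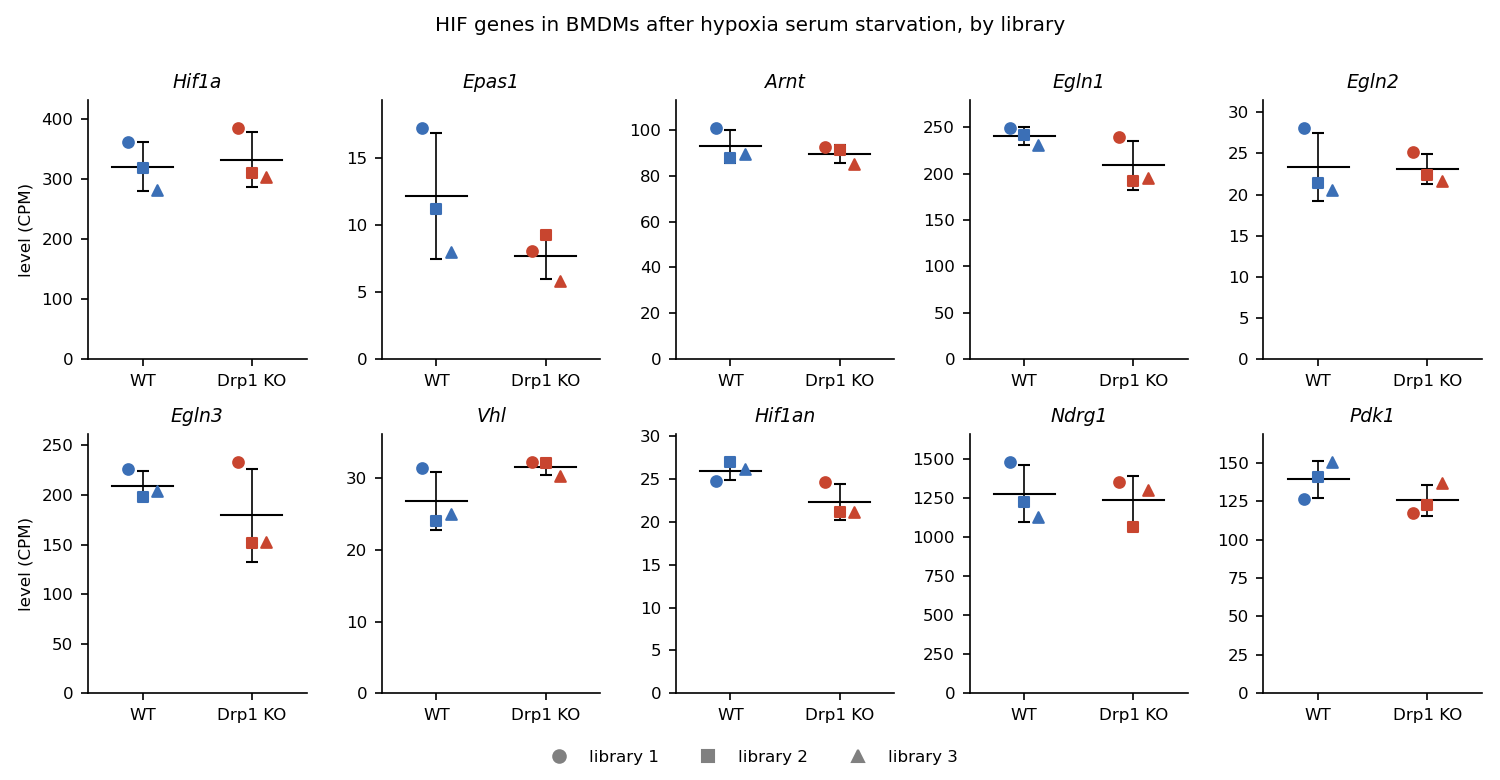
Level of each of the 10 HIF genes in CPM (y axis, from 0, its own scale in each panel) in the 3 WT (blue) and 3 Drp1 KO (red) libraries, with marker shape for the library number and lines for the mean ± SD. Only the *Hif1an* panel has no overlap between groups, with WT at 24.8 CPM or more and Drp1 KO at 24.6 CPM or less.

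*Hif1a*, on the forward strand of chromosome 12 (GRCm39 chr12:73948149-73996321), encodes HIF-1α, the α subunit best known for driving glycolytic genes in macrophages. In WT libraries 1, 2 and 3 its level was 362, 318 and 281 CPM, and in the Drp1 KO libraries it was 385, 309 and 302 CPM. The 2 groups overlapped over most of their range, with library 1 the highest of each. Its log2 fold change was 0.052 ± 0.128 (SE; 95% confidence interval -0.23 to 0.34), and the adjusted p was 0.913. As a ratio of Drp1 KO to WT the interval ran from 0.851 to 1.26. The direction was not stable, since leaving out WT library 3 gave -0.047 and leaving out Drp1 KO library 1 gave -0.077. An antisense noncoding gene, Gm15283, covers the whole of *Hif1a* in the annotation, and, although the labels name a stranded library kit, the sources used here do not state whether the authors' counting used strand.

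The sum over the gene was made of 2 main transcripts whose shares did not overlap between genotypes. The transcript Hif1a-201 took 75.6%, 71.8% and 69.0% of the gene's estimated counts in WT, and 66.5%, 63.1% and 62.0% in Drp1 KO BMDMs. The transcript Hif1a-202 took 23.3%, 26.3% and 29.3% in WT, and 32.03%, 34.4% and 35.7% in Drp1 KO BMDMs. Within each pair of same-numbered libraries the Drp1 KO library had the smaller share of Hif1a-201 and the larger share of Hif1a-202. The level of Hif1a-202 was 84.1, 83.8 and 82.3 CPM in WT libraries, and with the knockout it was 123, 106 and 108 CPM, again without overlap. The level of Hif1a-201 overlapped, at 232 ± 39.9 CPM (SD, n = 3) in WT and 213 ± 37.6 CPM (SD, n = 3) with the knockout.

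These transcripts were picked out after their values were seen, so no test is given. Shares without overlap were common, at 22.8% of the 20670 transcripts that met the same minimum (a gene with 2 or more transcripts in the tables and at least 100 counts in every library, and a mean share of at least 5%). Kallisto divides reads between transcripts that share most of their exons, so a share is an estimate that rests on the few stretches in which they differ. Of 15 exons, 13 were the same in both transcripts. Hif1a-202 starts 6421 bases upstream of Hif1a-201, with a first exon of 124 bases in place of 529 bases, and places the start codon in exon 2 rather than exon 1. Its exon 11 also lacks 42 bases. The deposited tables do not show which of these stretches the reads came from.

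The sequences that set the 2 transcripts apart are given here, read from GRCm39 on the forward strand, since a first-exon difference means that a different stretch of DNA lies upstream of each start. The first is the 250 bases before the start of Hif1a-201 (chr12:73954320-73954569), which lie within the first intron of Hif1a-202. The second is the 250 bases before the start of Hif1a-202 (chr12:73947899-73948148). Capitals mark matches to ACGTG or GCGTG on either strand. The third is the start of exon 11 of Hif1a-201 (chr12:73988462-73988521), in which capitals mark the 42 bases that Hif1a-202 lacks.
Hif1a-201 upstream window: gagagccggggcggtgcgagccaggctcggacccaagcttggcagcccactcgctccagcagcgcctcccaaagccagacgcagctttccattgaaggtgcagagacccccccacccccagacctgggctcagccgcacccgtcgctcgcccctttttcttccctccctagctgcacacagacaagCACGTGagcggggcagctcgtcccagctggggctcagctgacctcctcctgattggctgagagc
Hif1a-202 upstream window: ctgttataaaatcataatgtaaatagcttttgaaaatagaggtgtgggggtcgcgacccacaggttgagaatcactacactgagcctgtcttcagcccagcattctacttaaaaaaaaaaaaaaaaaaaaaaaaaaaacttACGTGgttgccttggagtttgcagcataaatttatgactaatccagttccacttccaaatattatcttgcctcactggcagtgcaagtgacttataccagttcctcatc
Hif1a exon segment: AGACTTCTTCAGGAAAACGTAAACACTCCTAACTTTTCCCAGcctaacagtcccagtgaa

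The window before Hif1a-201 held the palindrome CACGTG at position -64 from the start, which matches ACGTG on both strands with overlap. The window before Hif1a-202 held a single ACGTG at -109. Their GC contents were 66.8% and 37.6%. A match is only a description, because 38.6% of all mouse RefSeq windows of this length held one. In the RefSeq promoter windows of GRCm38.p6, which run from 250 bases before to 50 after a start, 8 of the 10 genes had an entry, and *Epas1* and *Ndrg1* were not matched. These 8 had 10 windows, since *Egln2* and *Pdk1* had 2 each, and 7 of the 10 windows held at least 1 match, where 43.8% of all 32851 windows did. The 7 were those of *Hif1a*, *Arnt*, *Egln1* and *Egln3*, both of *Egln2* and 1 of *Pdk1*, and those of *Vhl* and *Hif1an* held none.

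**Figure D2:**
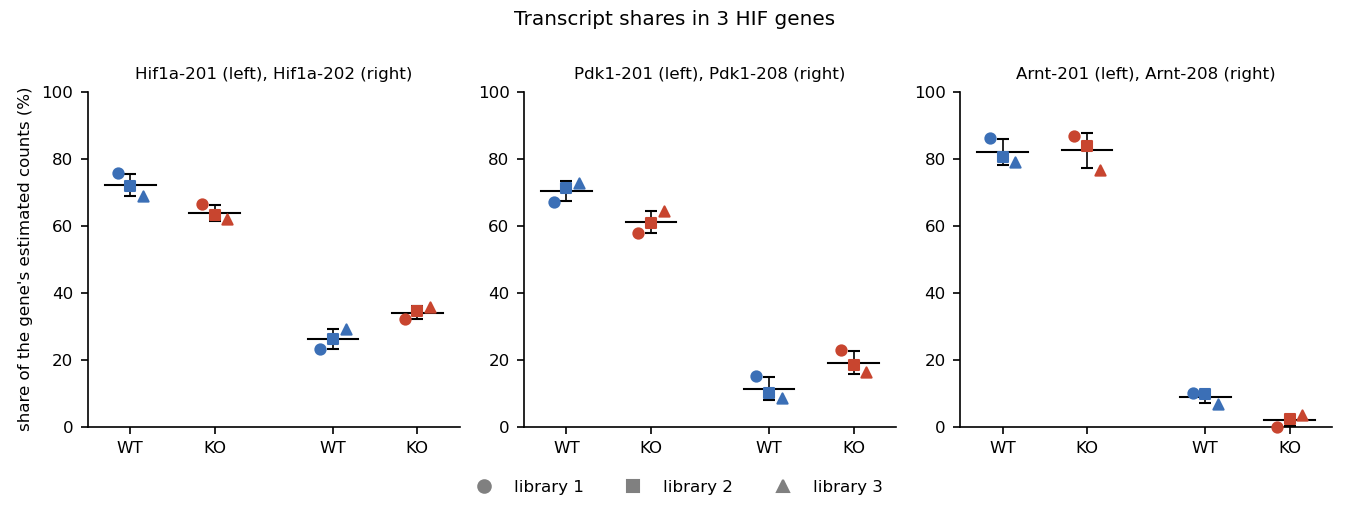
Share of a gene's estimated counts (y axis, percent) assigned to the 2 named transcripts of *Hif1a*, *Pdk1* and *Arnt* in each WT (blue) and Drp1 KO (red) library, with lines for the mean ± SD. Hif1a-202 stood at 23.3% to 29.3% in WT and 32.03% to 35.7% in Drp1 KO BMDMs.

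*Epas1* (chr17:87061087-87140838, forward strand) encodes HIF-2α, the second α subunit, best known from endothelial cells and also made by macrophages. Levels in WT libraries 1, 2 and 3 were 17.2, 11.2 and 8.01 CPM, and in the Drp1 KO libraries they were 8.03, 9.23 and 5.86 CPM. WT library 1 stood above all others, whereas WT library 3 lay within the Drp1 KO range. The gene had 177 to 400 counts per library, the fewest of the 10. The log2 fold change was -0.65 ± 0.267 (SE; 95% confidence interval -1.25 to -0.060), with an unadjusted p of 0.0340 and an adjusted p of 0.253.

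With libraries paired by number the log2 fold change of *Epas1* was -0.61 ± 0.155 (SE) and the adjusted p was 0.0282. *Epas1* was lower in the Drp1 KO library of 3 of 3 pairs, by log2 ratios of -1.10, -0.28 and -0.45. The value rested in part on WT library 1, without which the unpaired log2 fold change was -0.32. In the paired fit without both libraries 1 it was -0.36, with an adjusted p of 0.111. Without both libraries 3 the call was also lost, at an adjusted p of 0.0842, although the log2 fold change was larger in size, at -0.69. Over 17 other settings the adjusted p ran from 0.0169 to 0.556, with 2 under 0.05. Among endothelial markers, *Cdh5* was 0.0681 to 0.580 CPM and *Cldn5* had no count in any library. The 7 tested members of this list of 9 summed to 69.5 to 84.7 CPM in WT libraries, against 67.3 to 84.7 CPM with the knockout. The list's sum thus overlapped between groups. Of 7 tested members, 3 had log2 fold changes above 0 and 4 below. *Vwf*, the largest part of the sum, was at 47.0 ± 10.4 CPM in WT and 35.6 ± 6.90 CPM with the knockout (SD, n = 3 each; edgeR adjusted p 0.313). The receptor gene *Kdr* rose in Drp1 KO BMDMs, from 10.1 ± 1.82 to 19.4 ± 3.20 CPM (SD, n = 3 each; edgeR adjusted p 0.0144). The part of these markers in the *Epas1* values was not tested. In bulk RNA, fewer cells of a type and less RNA per cell cannot be told apart.

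*Arnt* (chr3:95341365-95404551, forward strand) encodes HIF-1β, the oxygen-independent partner of both α subunits. The WT libraries, in order of their numbers, held 100.8, 87.8 and 89.5 CPM, and the Drp1 KO libraries held 92.4, 91.1 and 85.0 CPM, and the groups overlapped. Relative to WT, its log2 fold change was -0.050 ± 0.0943 (SE; 95% confidence interval -0.26 to 0.16), with an adjusted p of 0.873, and its interval was the narrowest of the 10. The sign turned, to 0.011, without WT library 1. A transcript with a retained intron, Arnt-208, took 10.1%, 9.76% and 6.70% of the gene's estimated counts in WT and 0%, 2.19% and 3.45% in Drp1 KO BMDMs, without overlap. The main coding transcript, Arnt-201, overlapped, at 81.9% ± 3.89 and 82.5% ± 5.19 (SD, n = 3 each). The division among minor *Arnt* transcripts varied widely within a genotype. Arnt-202 had 0, 7.05 and 114 estimated counts in WT and 183, 139 and 26.6 in Drp1 KO libraries.

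Among the oxygen sensors, *Egln1* and *Egln3*, the pair that HIF itself induces, both had lower means in Drp1 KO BMDMs without passing the test. *Egln1* (chr8:125635308-125676865, reverse strand) encodes PHD2, the main sensor in most cells. Levels in WT libraries 1, 2 and 3 were 249, 241 and 231 CPM, and in the Drp1 KO libraries they were 240, 192 and 195 CPM. Drp1 KO library 1 lay within the WT range and the other two lay below it. Its log2 fold change was -0.20 ± 0.107 (SE; 95% confidence interval -0.44 to 0.036), with an adjusted p of 0.398, and 0.112 with libraries paired. Without Drp1 KO library 1 it was -0.32, with an adjusted p of 0.0940 by edgeR.

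*Egln3* (chr12:54225767-54250673, reverse strand) encodes PHD3, a sensor that low oxygen strongly induces in many cells. Its transcripts stood in WT libraries 1, 2 and 3 at 226, 198 and 204 CPM, and in the Drp1 KO libraries at 233, 152 and 153 CPM. Drp1 KO library 1 was the highest of all 6 and Drp1 KO libraries 2 and 3 were the lowest. The log2 fold change was -0.22 ± 0.159 (SE; 95% confidence interval -0.58 to 0.13), with an adjusted p of 0.560, and 0.121 with libraries paired. Without Drp1 KO library 1 it was -0.47, with an adjusted p of 0.0353 by edgeR, in a fit in which 4.96% of all genes passed. Leaving out Drp1 KO library 2 or 3 instead gave -0.11 (adjusted p 0.870) and -0.12 (adjusted p 0.838) by edgeR.

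*Egln2* (chr7:26853588-26866408, reverse strand) encodes PHD1. The WT libraries, in order of their numbers, held 28.1, 21.4 and 20.5 CPM, and the Drp1 KO libraries held 25.2, 22.4 and 21.7 CPM, all of the latter within the WT range. Its log2 fold change was -0.016 ± 0.139 (SE; 95% confidence interval -0.33 to 0.29), with an adjusted p of 0.983, and its sign turned under 5 of 17 other settings, at most to 0.13 without WT library 1. The protein-coding gene *Cyp2t4* overlaps *Egln2* on the opposite strand.

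*Hif1an* (chr19:44551286-44568723, forward strand), which encodes FIH, was the only one of the 10 genes whose groups did not overlap in CPM. Levels in WT libraries 1, 2 and 3 were 24.8, 26.9 and 26.1 CPM, and in the Drp1 KO libraries they were 24.6, 21.1 and 21.1 CPM, and the nearest libraries of the 2 groups, both numbered 1, were only 24.79 and 24.65 CPM. Groups without overlap were found for 21.9% of all genes. The exact two-sided permutation p was 0.1, the smallest that 3 against 3 allows. The fitted log2 fold change was -0.22 ± 0.110 (SE; 95% confidence interval -0.47 to 0.022), with an adjusted p of 0.357, and 0.169 with libraries paired.

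*Vhl* (chr6:113600920-113608599, forward strand), the substrate-binding subunit of the ligase that marks hydroxylated HIF α, had the largest positive log2 fold change of the 10. Its transcripts stood in WT libraries 1, 2 and 3 at 31.4, 23.98 and 25.0 CPM, and in the Drp1 KO libraries at 32.2, 31.98 and 30.2 CPM. WT library 1 lay within the Drp1 KO range and the other WT libraries lay below it. Its log2 fold change was 0.23 ± 0.122 (SE; 95% confidence interval -0.039 to 0.50), with an adjusted p of 0.392, and 0.131 with libraries paired. It was 0.36 without WT library 1 and 0.14 without WT library 2. With counts scaled for the lengths of the transcripts it was 0.43, and for *Hif1an* the same scaling gave -0.46. Neither passed at an adjusted p under 0.05.

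*Egln1*, *Egln3*, *Hif1an* and *Vhl* shared a pattern over the library numbers. In pair 1 the log2 ratio of Drp1 KO to WT was -0.057, 0.046, -0.0084 and 0.036 for these genes in that order. In pair 2 it was -0.33, -0.38, -0.35 and 0.42. In pair 3 it was -0.24, -0.41, -0.31 and 0.27. The genotypes were thus apart in pairs 2 and 3 and close together in pair 1. They were picked for this pattern after their values were seen. A paired fit without both libraries 1, in which these 4 genes and 15.5% of all genes passed, restates that choice and lends the pattern no support. With 1 library of each genotype per number, a difference between the pairs was not tested, and the labels do not say what sets libraries 1 apart.

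**Figure D3:**
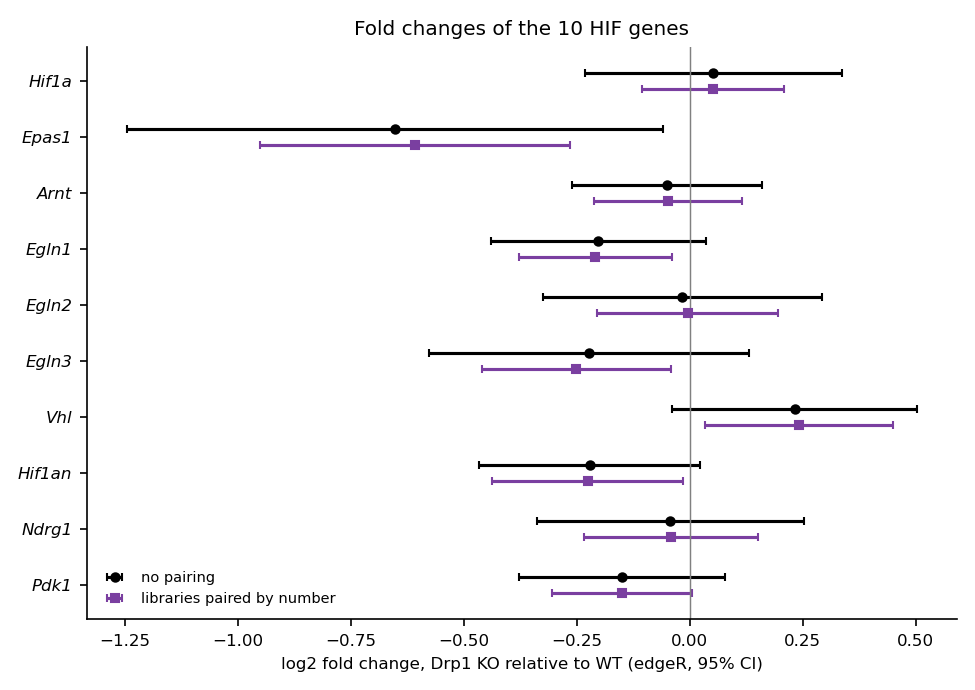
Log2 fold change (x axis, Drp1 KO relative to WT) of each of the 10 genes by edgeR, with bars for the 95% confidence interval, without pairing (black circles) and with libraries paired by number (purple squares). Pairing narrowed the intervals, and *Epas1* stood lowest, at -0.65 and -0.61.

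Both target genes had overlapping groups. *Ndrg1* (chr15:66801166-66841835, reverse strand) encodes a cytoplasmic stress-response protein and is a widely used hypoxia marker. The WT libraries, in order of their numbers, held 1481, 1224 and 1129 CPM, and the Drp1 KO libraries held 1352, 1066 and 1302 CPM. Relative to WT, its log2 fold change was -0.043 ± 0.133 (SE; 95% confidence interval -0.34 to 0.25), with an adjusted p of 0.935. Its sign turned under 4 of 17 other settings, at most to 0.075 without WT library 1.

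*Pdk1* (chr2:71703488-71734202, forward strand) encodes a kinase that inactivates pyruvate dehydrogenase and so limits the use of pyruvate within the mitochondria. Levels in WT libraries 1, 2 and 3 were 126, 141 and 150 CPM, and in the Drp1 KO libraries they were 117, 123 and 137 CPM. The Drp1 KO library was the lower in 3 of 3 pairs, by log2 ratios of -0.11, -0.20 and -0.14. Its log2 fold change was -0.15 ± 0.103 (SE; 95% confidence interval -0.38 to 0.078), with an adjusted p of 0.541, and it kept its sign under all 17 other settings without passing under any.

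The only *Pdk1* transcript with a defined coding sequence took 67.0%, 71.2% and 72.7% of the gene's estimated counts in WT and 57.8%, 60.9% and 64.4% in Drp1 KO BMDMs. The next, annotated without one, took 15.3%, 10.0% and 8.67% in WT and 22.8%, 18.4% and 16.2% in Drp1 KO BMDMs. Neither share overlapped between groups, nor did that of the coding transcript of *Vhl*, Vhl-201, at 94.8% ± 0.585 and 92.2% ± 1.58 (SD, n = 3 each). *Egln1* and *Egln3* had a single transcript each and so no share to compare. Of the other 8 genes, 12 transcripts met the minimum and 6 had shares without overlap, beside 22.8% of all transcripts. These 6 belong to 4 genes, and shares within a gene sum to a whole, so they are not independent.

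Levels can be compared between genes only per length, and for this the authors' TPM, which correct for transcript length, were added per gene. The median over 6 libraries was highest for *Ndrg1*, at 582 TPM, followed by *Hif1a* at 129, *Egln3* at 103, *Pdk1* at 89.2 and *Egln1* at 77.3 TPM. Below these came *Arnt* at 40.1, *Vhl* at 24.4, *Egln2* at 13.2, *Hif1an* at 7.00 and *Epas1* at 2.23 TPM. Neighbours in this order had ranges that overlapped only between *Egln3* and *Pdk1* and between *Pdk1* and *Egln1*. The messenger for HIF-1α was thus far above that for HIF-2α in every library, at 122 to 143 TPM against 1.32 to 3.85 TPM. When only transcripts with a defined coding sequence were added, the median of *Pdk1* was 24.9 TPM, below that of *Arnt* at 29.1 TPM. Their ranges overlapped, at 18.2 to 34.3 TPM for *Pdk1* and 27.7 to 31.3 TPM for *Arnt*.

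Other genes of the pathway were described by list. Of 11 partners and modulators of HIF, 8 had log2 fold changes above 0 and the median was 0.24. At an adjusted p under 0.05, 1 of these 11 passed, beside 3.36% of all genes in either direction, and 4 did at an unadjusted p under 0.05, beside 16.4%. The gene that passed after adjustment was *Siah1a*, encoding a ubiquitin ligase that acts on prolyl hydroxylases, which rose from 8.51 ± 0.866 to 13.4 ± 1.56 CPM (SD, n = 3 each; log2 fold change 0.66, edgeR adjusted p 0.0353). *Siah1a* has a close paralog, *Siah1b*, with which reads may be shared. Its call was lost without WT library 2 or 3 or Drp1 KO library 2 or 3, and with length-scaled counts. With libraries paired, *Cul2* (log2 fold change 0.41, adjusted p 0.00452) and *Eloc* (0.32, adjusted p 0.0307) also passed, which makes 3 of 11 beside 12.0% of all genes. Of the 3, *Cul2* alone passed when both libraries 2 or both libraries 3 were left out of the paired fit. Both encode subunits of the ligase in which VHL works, and their adjusted p without pairing were 0.0891 and 0.128.

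The non-glycolytic HIF targets lay on both sides of 0, with 11 of 30 above and 19 below and a median of -0.11. Of these 30, 2 passed, beside 3.36% of all genes in either direction, and 14 did at an unadjusted p under 0.05 (5 higher and 9 lower), beside 16.4%. *Angptl4*, an inhibitor of lipoprotein lipase, fell from 14.7 ± 1.98 to 7.88 ± 1.65 CPM (SD, n = 3 each; edgeR adjusted p 0.0222), and *Tfrc*, the transferrin receptor, fell from 587 ± 100.8 to 373 ± 61.9 CPM (SD, n = 3 each; edgeR adjusted p 0.0456). Of the 30, 0 passed when WT library 3 or either of Drp1 KO libraries 2 and 3 was left out. *Tfrc* also lost its call when WT library 2 or Drp1 KO library 1 was left out, with scaling by library size only, and with length-scaled counts. With libraries paired 11 of 30 passed, where 12.0% of all genes did. Of these, 5 were higher in Drp1 KO BMDMs and 6 lower. The higher were *Ddit4*, an inhibitor of mTORC1 (paired log2 fold change 0.62), *Cxcr4*, a chemokine receptor (0.54), *Bhlhe40*, a transcriptional repressor (0.48), *Hilpda*, a lipid droplet protein (0.45), and *Lox*, a collagen crosslinking enzyme (0.31). The lower were, beside *Angptl4* and *Tfrc*, *Adm*, the vasodilator adrenomedullin (-0.68), *Hmox1*, a heme-degrading enzyme (-0.57), *P4ha2*, a collagen prolyl hydroxylase (-0.36), and *Bnip3*, a mitophagy receptor (-0.26). Their paired adjusted p ran from 0.000594 for *Tfrc* to 0.0497 for *Bnip3*. In the paired fit *Bnip3* lost its call whichever pair of same-numbered libraries was left out, *P4ha2* without both libraries 2 or both libraries 3, and *Lox* without both libraries 3, whereas *Gys1*, encoding muscle glycogen synthase, passed without both libraries 1.

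Of 14 glycolytic targets, 12 had log2 fold changes below 0, the median was -0.15, and 0 passed by edgeR at an adjusted p under 0.05, beside 3.36% of all genes. At an unadjusted p under 0.05, 2 passed, beside 16.4% of all genes, and by DESeq2 1 did at an adjusted p under 0.05, beside 6.24%. With libraries paired, *Pfkl*, the liver-type phosphofructokinase (log2 fold change -0.28, adjusted p 0.0232), and *Eno1*, an enolase (-0.29, adjusted p 0.0213), passed, which is 14.3% of the list beside 12.0% of all genes. Both calls were lost when both libraries 2 or both libraries 3 were left out of the paired fit. The gene with the next smallest p was *Gpi1*, glucose-6-phosphate isomerase, at 758 ± 23.4 and 655 ± 60.7 CPM (SD, n = 3 each; adjusted p 0.339). Beside *Pdk1*, 10 genes of pyruvate dehydrogenase and its regulators gave 0 calls by edgeR, 2 at an unadjusted p under 0.05 (16.4% of all genes) and 0 by DESeq2. With pairing *Pdk3*, a second kinase of the complex (-0.28, adjusted p 0.0472), was lower, and the phosphatase gene *Pdp1* (0.45, adjusted p 0.0378) and the subunit gene *Pdhb* (0.34, adjusted p 0.0374) were higher. These are 3 of 10 beside 12.0% of all genes, and all 3 calls were lost when both libraries 2 or both libraries 3 were left out, that of *Pdhb* also without both libraries 1. *Pdk2*, a further kinase, was at 8.24 ± 0.507 and 6.55 ± 0.0194 CPM (SD, n = 3 each; adjusted p 0.256). Of the 3 relatives of *Ndrg1*, 0 passed in edgeR, with or without pairing, 0 at an unadjusted p under 0.05 and 0 by DESeq2, and *Ndrg3* was at 53.4 ± 4.92 and 51.7 ± 4.38 CPM (SD, n = 3 each).

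**Figure D4:**
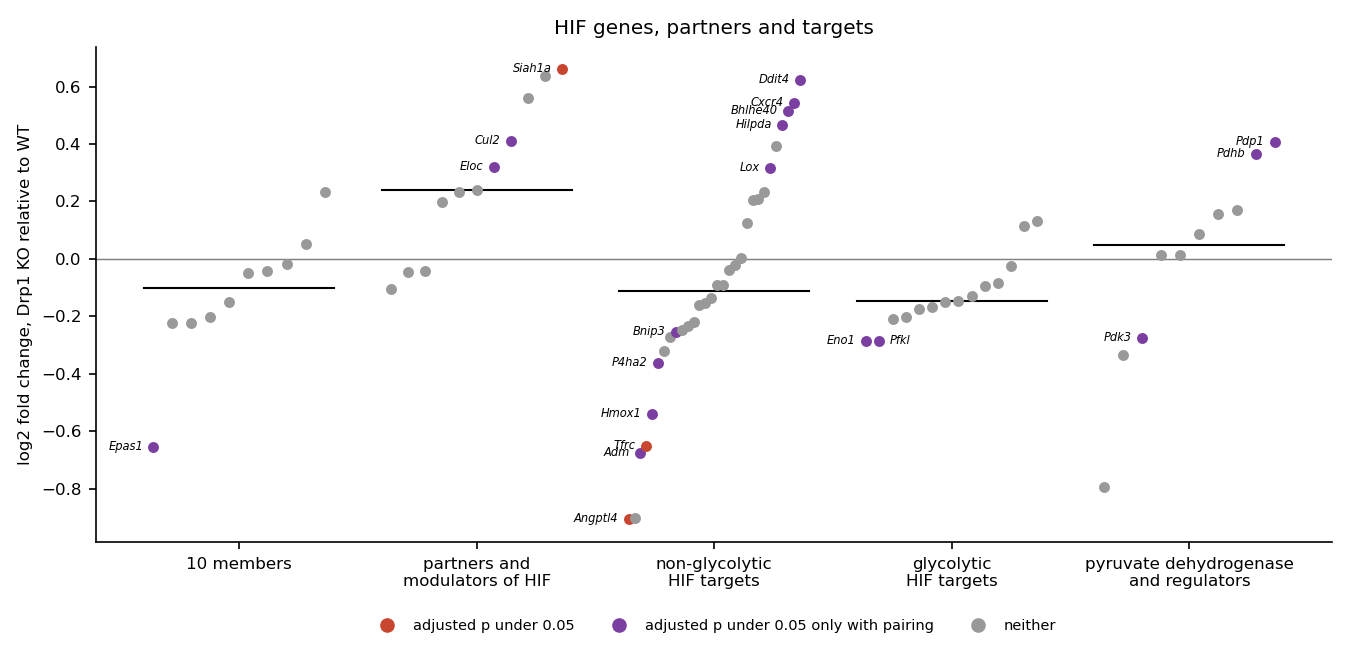
Log2 fold change (y axis, Drp1 KO relative to WT, without pairing) of each gene in 5 lists, 1 point per gene, ordered by value within a list, with a line for the list's median. Red points passed at an adjusted p under 0.05 without pairing and purple points only with libraries paired, and the medians were -0.10 for the 10 members and 0.24 for the partners.

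Per library, each gene's log2 CPM was set against its mean over the 6 libraries. The median deviation was then taken over the genes of a list with a mean of at least 1 CPM. For the 10 genes it was 0.16, 0.011 and -0.086 in WT and 0.11, -0.087 and -0.099 in Drp1 KO BMDMs, so that the groups overlapped and both libraries 1 stood highest. For the partners, of which 10 of 11 reached that mean, it was -0.17, -0.11 and -0.11 in WT and 0.094, 0.032 and 0.074 in Drp1 KO BMDMs. These values did not overlap. Of all single genes, 21.9% had groups without overlap, and how often the median of a list does so was not tested. For the glycolytic targets it was 0.11, 0.021 and 0.082 in WT and 0.040, -0.15 and -0.094 in Drp1 KO BMDMs.

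**Figure D5:**
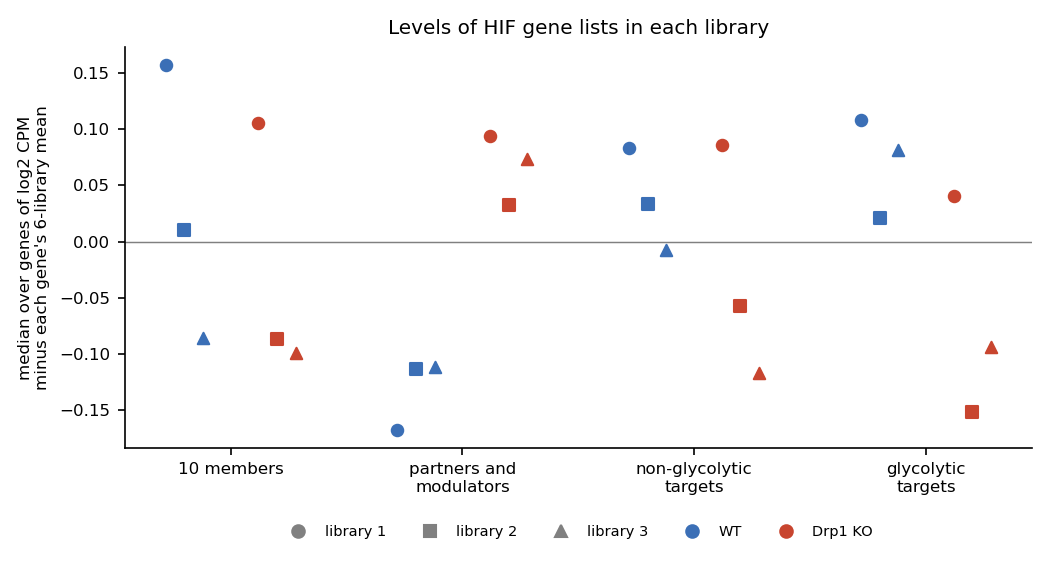
Median of log2 CPM minus each gene's own 6-library mean (y axis), over the genes of a list with a mean of at least 1 CPM. It is shown for 4 lists in each WT (blue) and Drp1 KO (red) library, with marker shape for the library number. For the 10 genes both libraries 1 stood above the rest, at 0.16 and 0.11.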

How the data were processed

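Polyadenylated RNA was sequenced from 6 libraries, 3 per genotype. Per the labels and the study's methods, the authors quantified reads with kallisto 0.46.1 on mouse cDNA of GRCm39 and deposited, per library, the estimated counts and TPM of each transcript (expected counts, unscaled between libraries; TPM scaled for transcript length and depth). The labels name a kit that keeps strand (TruSeq Stranded mRNA), where the study's methods name TruSeq RNA, and the strand setting of the counting is not given in the sources used here. Length was read only to describe transcripts, and effective length only for the length-scaled counts named below.

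Of 116873 transcripts, 99.4% were matched to the annotation of GRCm39, and the 0.542% to 0.575% of counts on the others were left out. Estimated counts were summed per gene, rounded, and tested in edgeR 4.0.16 (R 4.3.3; TMM, quasi-likelihood test, genes with at least 10 counts in all, no covariate, Benjamini-Hochberg over all genes tested). CPM used TMM-scaled library sizes. Totals of 23389488 to 32231206 set the precision. Intervals are 95%. Checks on simulated counts were run first.

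Alternatives were other scalings and filters, DESeq2 1.42.0, limma-voom 3.58.1, length-scaled counts, each library left out, and the library number as a block. Same-numbered libraries correlated in their deviations from the group means at 0.510, 0.204 and 0.298 over 12248 genes, which was taken as pairing from the data, although WT library 2 correlated best with Drp1 KO library 3 (0.326). The labels state no pairing. No libraries of a group agreed within counting noise.

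The 10 genes and all lists were chosen with earlier results of these data known. Named with values were the 10 genes, *Dnm1l*, and in each other pathway list the genes that passed in either fit and the 3 with the smallest p at a mean of at least 1 CPM. Some markers of cell types were also given with values, outside this rule.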

Additional observations from a re-analysis of the deposited data

How the results depend on the processing

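Of the 10 genes, 0 passed an adjusted p under 0.05 under 13 of 17 other settings. The count was 1 with the replicate block (*Epas1*), and 0 to 1 when single libraries were left out (*Egln3* without Drp1 KO library 1). It was 4 in the replicate block without both libraries 1 and 1 without both libraries 2 (*Epas1*) and 0 without both libraries 3, alternatives added after the data were seen. By fold change and unadjusted p, 1 became 0 by limma-voom, 2 with length-scaled counts (*Hif1an* and *Vhl*), 0 to 2 with single libraries left out (0 without Drp1 KO library 3, and *Vhl* in place of *Epas1* without WT library 1), and 4 in the block without both libraries 1. Signs turned, in no case past the threshold, for *Hif1a* (-0.077 to 0.15), *Arnt* (-0.11 to 0.011), *Egln2* (-0.12 to 0.13) and *Ndrg1* (-0.14 to 0.075) with single libraries left out, for *Egln2* with length-scaled counts (0.0087) and in the block without both libraries 1 (0.069), and for *Ndrg1* in the block without both libraries 1 (0.0013) or 2 (0.039). Partners called numbered 1, and 2 with no filter beyond 1 count or by DESeq2, 3 with the replicate block, 0 with length-scaled counts, 0 to 2 with single libraries left out, and 4, 1 and 1 in the block without both libraries 1, 2 or 3. Non-glycolytic targets numbered 2, with *P4ha2* in place of *Tfrc* under length scaling or by library size only, and 6 with no filter beyond 1 count, 7 by DESeq2, 11 with the block, 0 to 4 with single libraries left out, and 11 (*Gys1* in place of *Bnip3*), 9 and 8 in the block without both libraries 1, 2 or 3. Glycolytic targets numbered 0, and 1 by DESeq2, 2 with the block, and 5, 0 and 0 in the block without both libraries 1, 2 or 3. For pyruvate dehydrogenase and its regulators the counts were 0, 3 with the block, 0 to 1 with single libraries left out, and 2, 0 and 0 in the block without both libraries 1, 2 or 3. The cause was not tested. The fewest counts of any of the 10 genes were 177 in a library (*Epas1*), and all levels are of messenger, not protein.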
